A study of Mus musculus with 26 samples.

Results

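The genes described here are 44 textbook imprinted genes of the mouse, out of 47606 genes with an expression value. They were taken from a fixed list of names and not by a measured value, though earlier results of these data were known. All 44 were found in the GENCODE M21 annotation of GRCm38 (mm10). Of the 44, 15 are known mainly from the maternal copy, 25 from the paternal copy, and 4 have mixed or variable copy use (Gnas, Commd1, Trappc9 and Copg2). Each gene was followed over its own length and 5 kb on either side.

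All samples used here were KH2 mouse embryonic stem cells (mESC), a single line grown with LIF and serum on irradiated feeder fibroblasts that were removed by pre-plating. M-ATAC reads open chromatin and DNA methylation from the same molecules: the Tn5 transposase cuts open DNA, bisulfite turns unmethylated cytosine into uracil, and methylated cytosine is left. CTCF M-ChIP does the same on DNA pulled down with an antibody to CTCF. There were 4 M-ATAC samples, 2 unconverted M-ATAC controls (M-ATAC-NC), 2 ATAC samples, 2 CTCF M-ChIP samples, 2 unconverted controls (CTCF M-ChIP-NC), 2 CTCF ChIP samples and 2 RNA-seq samples, and no treatment or genotype separates these groups. Methylation and RNA came as merged tables without replicate values, and the labels do not say that samples came from separate cultures, so p-values measure only the spread between samples. Reads were not assigned to a parental copy in any table.

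An imprinted gene is read mainly from 1 of its parental copies. The choice is carried by control regions whose CpGs are methylated in only one of the germ lines and keep that mark in the embryo, so that in a cell with an intact imprint the region is methylated on one copy and free on the other. At several of these regions, including that of H19 and Igf2, CTCF binds the unmethylated copy. M-ATAC and M-ChIP read methylation only on the molecules that were open or bound, so a copy that is closed or unbound adds few or no reads. Control regions were not mapped here, and the regions below are named by their distance from a gene's start.

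The sequences shown first are bound CTCF motifs with intermediate methylation, followed by the unmethylated motif of H19, and then the open regions of Trappc9 and Commd1 with the highest methylation and an unmethylated one of Snrpn. All are read 5′ to 3′ from the RefSeq GRCm38 genome, and capitals mark the CpGs with at least 5 reads in the table. The first 5 are CTCF motif matches with 5 bases added at each end, and the coordinates are those of the 19-base match.
Plagl1, coding exon, chr10:13127503-13127521, minus strand, 51.2% methylated: tgtgtggaccaccaggtggCGaCGcacat
Plagl1, intron, chr10:13087394-13087412, plus strand, 20% methylated: ctcaaaggccactagagggtgcaCGtgat
Commd1, intron, chr11:22950320-22950338, plus strand, 52.9% methylated: ccacagagccagcagagggCGtCGgagcc
Commd1, intron, chr11:22965807-22965825, plus strand, 66.7% methylated: cagacatgccactagagggcatCGgatcc
H19, upstream flank, chr7:142580762-142580780, minus strand, 0 of 19 reads methylated: ggatgctacCGCGCGgtggcagcatactc
The next 3 are whole open regions on the plus strand.
Trappc9, intron, chr15:72859353-72859550, 45.0% methylated: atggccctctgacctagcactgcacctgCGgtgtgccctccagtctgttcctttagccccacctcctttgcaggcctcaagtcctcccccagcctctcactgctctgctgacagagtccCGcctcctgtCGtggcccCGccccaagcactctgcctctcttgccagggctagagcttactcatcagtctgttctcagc
Commd1, intron, chr11:22917929-22918060, 90.5% methylated: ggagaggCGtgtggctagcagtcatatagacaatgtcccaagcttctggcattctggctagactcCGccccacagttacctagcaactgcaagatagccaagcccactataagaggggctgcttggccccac
Snrpn, intron, chr7:60004158-60004361, 0 of 93 reads methylated: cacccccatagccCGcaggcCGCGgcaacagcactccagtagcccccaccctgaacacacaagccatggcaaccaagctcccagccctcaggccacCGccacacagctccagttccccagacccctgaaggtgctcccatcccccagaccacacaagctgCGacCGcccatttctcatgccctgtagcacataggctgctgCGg
At the coding Plagl1 match, at Commd1 and at H19 the capitals fall inside the 19-base match, and at the intronic Plagl1 match the C is its last base. The Trappc9 region holds 4 covered CpGs, 3 of them close together near its middle. The Snrpn region holds 7. The Commd1 and Snrpn open regions were found only with the M-ATAC samples merged, with a peak in no single sample. Repeats make up 86.4% of the Commd1 open region in the reference, and 0% of the Trappc9 and Snrpn regions.

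Stem cell genes were high in the RNA, and fibroblast genes were present at lower levels. All 8 stem cell markers (such as Pou5f1 and Nanog) were between 229 and 5394 TPM (a transcript level per length, scaled to the same total in each library). Of 10 fibroblast markers, 8 reached 1 TPM, none was at 0, and their levels ran from 0.08 to 85.3 TPM with a sum of 212 TPM. Acta2, a smooth muscle actin, was the highest of them, and Col1a1, a collagen chain, was at 48.7 TPM. Feeder cells carry imprinted transcripts too, and their part in the levels below was not tested. In bulk RNA a change in the number of cells of a type cannot be told apart from one in the RNA of each cell.

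Expression was widespread among the imprinted genes. At least 1 TPM was found for 35 of 44 (79.5%), against 28.2% of all genes. Here and in the later comparisons with all genes, coding and non-coding gene types were not matched. The members' median was 10.84 TPM and that of all 47606 genes was 0 TPM. Among genes of at least 1 TPM the medians were close, at 17.29 TPM for the imprinted genes and 15.81 TPM for all. The RNA table was counted without strand and 25 of the 44 overlap a gene on the other strand, so the levels of pairs such as Airn and Igf2r, Kcnq1ot1 and Kcnq1, or Zrsr1 and Commd1 cannot be fully told apart.

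Of the genes known from the maternal copy, 12 of 15 were at or above 1 TPM, with a median of 17.5 TPM over the 15. The highest was Rian, a long non-coding RNA that hosts small nucleolar RNAs, at 160 TPM. It was followed by Phlda2, which restrains placental growth, at 88.3 TPM, and Grb10, an adaptor that dampens insulin and growth factor signaling, at 85.8 TPM. Meg3, the non-coding RNA next to Rian, was at 57.0 TPM and Mirg, the microRNA host further along, at 17.5 TPM. H19, a non-coding RNA and microRNA precursor, was at 32.7 TPM, and Igf2r, the receptor that clears IGF2, at 31.9 TPM. Ube3a, a ubiquitin ligase imprinted in neurons, stood at 29.1 TPM. The growth inhibitor Cdkn1c was at 10.7 TPM, while the potassium channel gene Kcnq1, the zinc finger gene Zim1 and the transporter gene Slc22a3 were at 0.20, 0.17 and 0.02 TPM.

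Of the genes known from the paternal copy, 19 of 25 reached 1 TPM, with a median of 6.07 TPM over the 25. Snrpn, which encodes a splicing protein, led at 72.9 TPM. Impact, a regulator of translation under stress, was at 43.0 TPM and Peg3, a zinc finger protein, at 38.4 TPM. The hydrolase-like gene Mest was at 27.3 TPM and Peg10, derived from a retrotransposon, at 25.2 TPM. Igf2, the fetal growth factor, was at 16.6 TPM, Nnat, a small membrane protein of neurons, at 16.2 TPM, and Plagl1, a zinc finger growth regulator, at 6.07 TPM. The non-coding RNAs that silence their neighbors in cis were low: Airn was at 0.87 TPM and Kcnq1ot1 at 0.22 TPM. Rasgrf1, an exchange factor for Ras, was the lowest of the 25 at 0.04 TPM. The other paternal genes spread over the same range. Mcts2, a retrogene of a translation factor, was at 32.01 TPM, Zdbf2 at 14.25 TPM and Inpp5f at 10.96 TPM. Dlk1, a membrane ligand of the Notch family, was at 2.85 TPM, Dio3, the enzyme that inactivates thyroid hormone, at 1.18 TPM, and Rtl1, a placental gene of retrotransposon origin, at 0.46 TPM. The neuronal genes of the Snrpn domain were low, with Ndn at 3.75 TPM, Mkrn3 at 1.64 TPM and Magel2 at 0.20 TPM.

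The 4 genes of mixed copy use were all expressed, with Gnas, which encodes a G protein subunit, at 351 TPM, the highest of the 44. Commd1, which takes part in copper handling, was at 67.2 TPM.

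**Figure D1:**
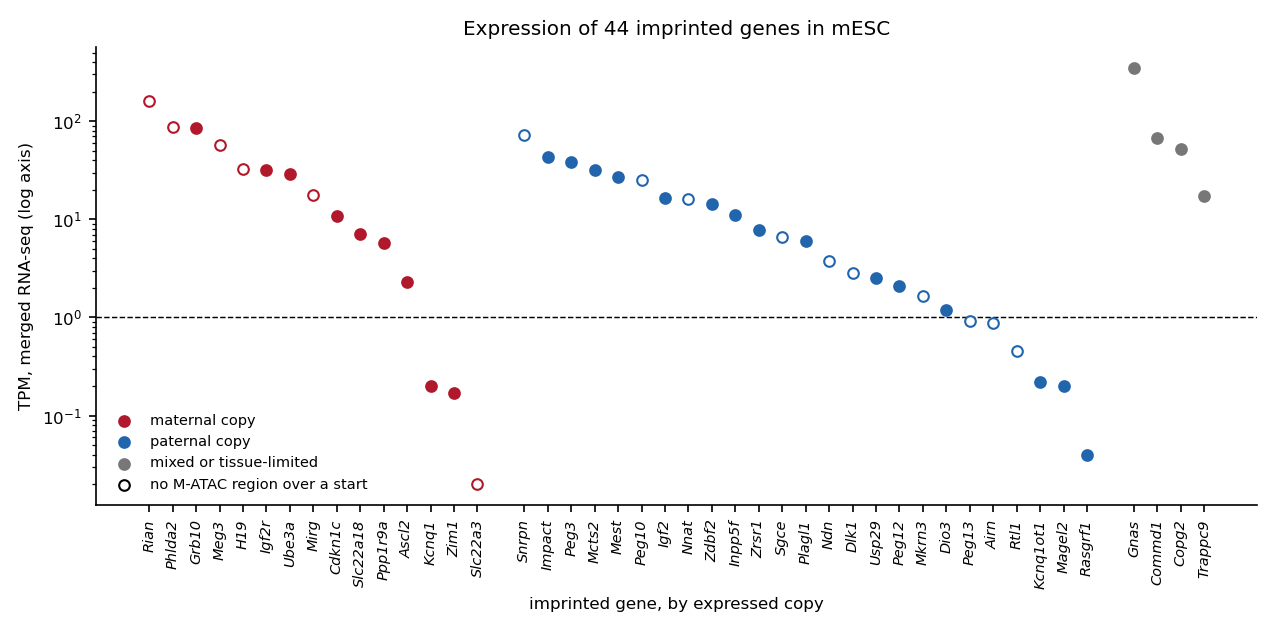
Expression of each of the 44 imprinted genes in the merged mESC RNA-seq (TPM, log axis), 1 circle per gene, colored by the copy known to be read and open where no M-ATAC region covers a start. The dashed line marks 1 TPM: 35 genes lie above it, from Dio3 at 1.18 TPM to Gnas at 351 TPM, and 9 lie under it, down to Slc22a3 at 0.02 TPM.

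A list of genes that guard imprints, or take part in adding or removing DNA methylation (such as Dnmt3a and Tet1), was expressed throughout. Of 12 listed, 12 were at or above 1 TPM, from 16.4 TPM for the zinc finger gene Zfp445 to 943 TPM for Trim28, the corepressor that zinc finger proteins bring to DNA. Zfp57, the zinc finger protein that binds methylated control regions, was at 185 TPM, Uhrf1, which brings the maintenance methyltransferase to copied DNA, at 161 TPM, and that enzyme, Dnmt1, at 107 TPM. Among 24 further imprinted genes outside the 44, 15 reached 1 TPM, 2 were listed at 0 (Kcnk9 and Slc22a2), and the median was 3.86 TPM. No test was possible on these levels, since the table holds 1 merged value a gene.

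Open chromatin was present at 39 of the 44 genes (88.6%), against 54.2% of all genes in windows drawn the same way. The median window was 38.6 kb for the imprinted genes and 13.9 kb for all, and the part of window length was not tested. The exceptions were H19, Rtl1, Rian, Dlk1 and Slc22a3, of which H19, Rian and Dlk1 had RNA at 1 TPM or more. The merged M-ATAC list gave 146 open regions at the imprinted genes out of 66726 in all, with 84 in introns, 56 on exons and 6 in the flanks. Of the 146, 35 had a peak in all 4 M-ATAC samples (24.0%, against 23.1% of all regions), 55 in both M-ATAC-NC samples (37.7%, against 36.8%) and 55 in both ATAC samples (37.7%, against 31.0%). In 32 there was a peak in all 8 samples, and 37 had a peak in no single sample and were found only in the merged list. These last counts were not made over all regions, so they cannot be called high or low. The shares for M-ATAC and M-ATAC-NC were within 1 percentage point of those of all regions, and that for ATAC was higher.

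An annotated start lay in an open region for 28 of 44 genes (63.6%, against 29.9% of all genes). Among the 35 expressed genes it did for 23 (65.7%), against 81.6% of all genes at or above 1 TPM. The 12 expressed genes without an open start were Rian, Phlda2, Snrpn, Meg3, H19, Peg10, Mirg, Nnat, Sgce, Ndn, Dlk1 and Mkrn3. Several of these had open regions close by. The nearest to a start was 27 bases away for Sgce, 30 for Phlda2, 265 for Nnat and 367 for Mkrn3. It was 587 bases away for Meg3 and 1558 for Peg10. Such near misses were not counted among all genes. In the other direction Kcnq1, Zim1, Kcnq1ot1, Magel2 and Rasgrf1 had an open start and were under 1 TPM.

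The height of the open regions was similar in M-ATAC and its control and lower in ATAC. Fold enrichment is the ratio of reads at a peak's summit to the local background. Over the 32 regions found in all 8 samples its median was 9.43, 10.5, 9.59 and 8.51 in the M-ATAC samples, 8.79 and 9.24 in M-ATAC-NC, and 6.12 and 6.48 in ATAC. The ATAC samples lay below the other 6 here, as they did over each sample's whole list, where the median was 6.78 to 7.5 in M-ATAC, 6.27 and 6.48 in M-ATAC-NC, and 5.58 and 5.53 in ATAC.

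Methylation inside the open regions was low at the imprinted genes, as it was elsewhere. A cytosine was counted on its own strand with at least 5 reads, and called intermediate at 20 to 80% methylation. There were 2288 such cytosines at the imprinted genes, covered by 5 to 98 reads with a median of 9, and 1851 of them had no methylated read. Intermediate methylation was found at 131 (5.73%, 95% Wilson interval 4.85 to 6.75), against 5.54% of all 1033385 cytosines. Methylation above 80% was found at 2 (0.0874%), against 0.170%. Of the 131, 108 had fewer than 10 reads and 40 were a single methylated read among 5, so that a lone cytosine says little. Of all 57257 intermediate cytosines, 10233 had 10 reads or more. Intervals here and below cover counting error only, since amplified reads are not independent molecules. Where reads are summed over neighboring cytosines, the same molecule can be counted at several of them, so those intervals can be too narrow.

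Intermediate methylation on both strands of a CpG was counted next, since it does not rest on a single cytosine. It was found at 15 of 849 CpGs with enough reads on both strands (1.77%, against 2.00% of all). Trappc9, which encodes a subunit of a vesicle tethering complex, held 6 of the 15 and Ppp1r9a, a neuronal actin-binding protein, held 2. The others lay singly at Commd1, Kcnq1, Meg3, Mirg, Plagl1, Usp29 and the window shared by Phlda2 and Slc22a18. In all, 23 members had at least 1 intermediate cytosine, 16 were covered without one, and the 5 without an open region could not be read.

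To see whole regions, reads were summed over the cytosines of each region with at least 3 of them. Of 98 such regions at the imprinted genes, 1 had a 95% interval wholly between 20 and 80% (1.02%, Wilson interval 0.18 to 5.56), against 6.04% of all 40582 regions. With cytosines of 1 read or more it was 9 of 122 (7.38%, against 9.55% of all), and by the summed percent alone, without the interval, 4 of 98 (4.08%, against 15.3%). The interval lay wholly under 20% for 81, crossed 20% for 15 and crossed 80% for 1. The median of the 98 was 1.97% and that of all regions 2.35%. By summed reads the order was the other way, at 2.62% for the 98 and 1.66% for all regions. Both the members and the whole genome showed more methylation away from gene starts, so the share called depends on where regions lie. At an annotated start, 0 of 37 member regions were called, against 0.815% of all regions there. Farther than 1 kb from any start, 1 of 43 was called (2.33%), against 9.58%.

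**Figure D2:**
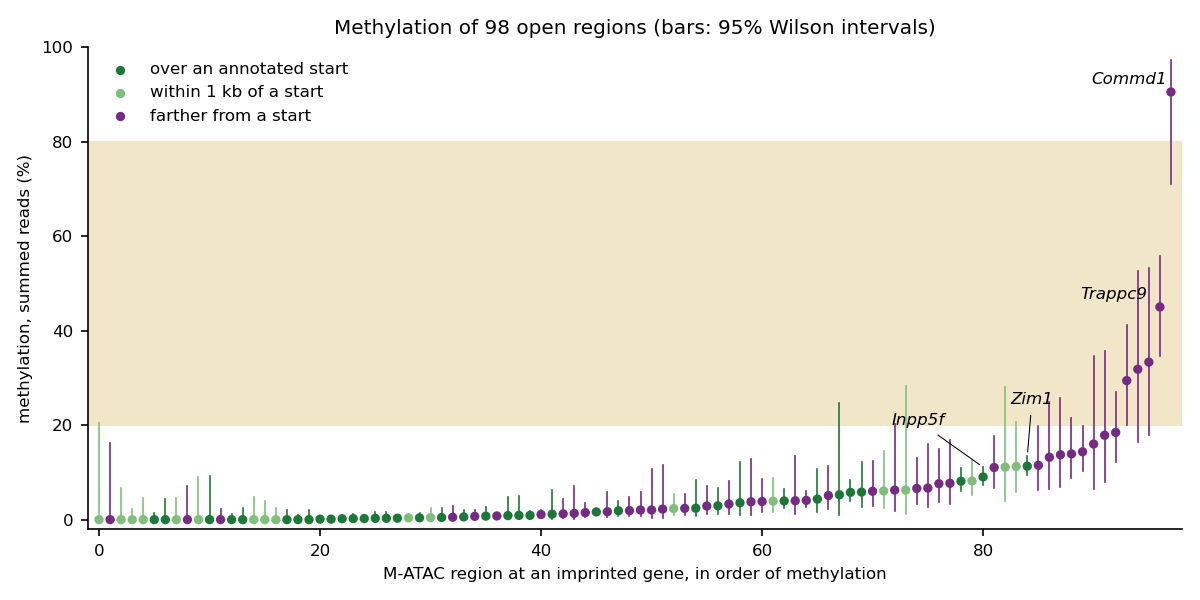
Methylation of the 98 open regions at imprinted genes with at least 3 cytosines of 5 or more reads (percent of summed reads, bars are 95% Wilson intervals), in order of methylation and colored by distance from an annotated start. The Trappc9 region at 45.0% is the one whose interval stays inside the shaded 20 to 80% band, the Commd1 region at 90.5% lies above it, and the regions over a start reach at most 11.3% (Zim1).

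The called region was in an intron of Trappc9 (chr15:72859353-72859550), 49029 bases from the start of Peg13, a paternally read non-coding RNA that lies inside Trappc9. Of 80 reads on 8 cytosines 36 were methylated (45.0%, 34.6 to 55.9). All 8 cytosines were intermediate, from 28.6% to 58.3%, with 5 to 12 reads each. The region had a peak in M-ATAC samples 2 and 3, at 5.1-fold and 6.7-fold, and none in M-ATAC samples 1 and 4, in M-ATAC-NC or in ATAC. Of the 8, 6 lie close together from base 120 on and the others near the first end of the region.

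Of the regions whose interval crossed a limit, 5 had the highest values. A further intronic Trappc9 region (chr15:72660087-72660767) held 20 methylated of 68 reads (29.4%, 19.9 to 41.1), with 7 of 9 cytosines intermediate. Intronic regions of Ppp1r9a held 8 of 24 reads (33.3%, 18.0 to 53.3) and 7 of 22 reads (31.8%, 16.4 to 52.7), the latter with a peak in no single sample. One of Sgce, a membrane glycoprotein gene next to Peg10, held 19 of 103 (18.4%, 12.1 to 27.0). At the upper limit the repeat-rich intronic region of Commd1 shown above held 19 of 21 reads (90.5%, 71.1 to 97.3), on 3 cytosines and with a peak in no single sample. Each of these 5 lay farther than 1 kb from any annotated start. The other 11 whose interval crossed 20% were between 0 and 17.9%.

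Regions at or near a gene's start were little methylated. In the 18 member regions within 1 kb of a start the median was 0.189%, with 1.90% of their summed reads methylated. All regions so placed had a median of 1.21% and 1.95% of reads methylated. Over the 37 member regions at a start, 363 of 18677 reads were methylated (1.94%), with a median of 0.581%. All regions at starts had 0.490% of reads methylated and a median of 0.30%. Of the 37, 23 were under 1% and 6 were at 5% or more. The most methylated start regions of Zim1 and Inpp5f, described next, were singled out after their values were seen. Without them the share over the rest was 1.03%, so these 2 regions held much of the methylated reads at starts. The rest still lay above the 0.490% of all regions at starts, and this difference was not tested.

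At Zim1, a maternally read neighbor of Peg3, the start (chr7:6696287-6696673) had 111 methylated of 981 reads (11.3%, 9.48 to 13.5) over 39 cytosines, 5 of them intermediate. It was open in every sample, with folds of 19.5, 18.6, 15.3 and 15.7 in M-ATAC, 12.6 and 13 in M-ATAC-NC, and 8.7 and 7.5 in ATAC. Zim1 RNA was at 0.17 TPM. At Inpp5f, a phosphoinositide phosphatase gene with an imprinted isoform, the start (chr7:128610965-128611436) had 79 of 875 reads methylated (9.03%, 7.30 to 11.1). Its folds were 12.7, 20.3, 10.8 and 14.0 in M-ATAC, 9.7 and 10 in M-ATAC-NC, and 8.8 and 7.7 in ATAC. These were the clearest open starts with more than a few percent of methylation among the members, and both were well under the 20% limit. At another annotated start of Inpp5f (chr7:128687926-128688497), 1 of 221 reads was methylated (0.452%, 0.0799 to 2.52). In a region 220 bases from an Inpp5f start it was 1 of 235 (0.426%). Methylation was not assigned to isoforms.

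**Figure D3:**
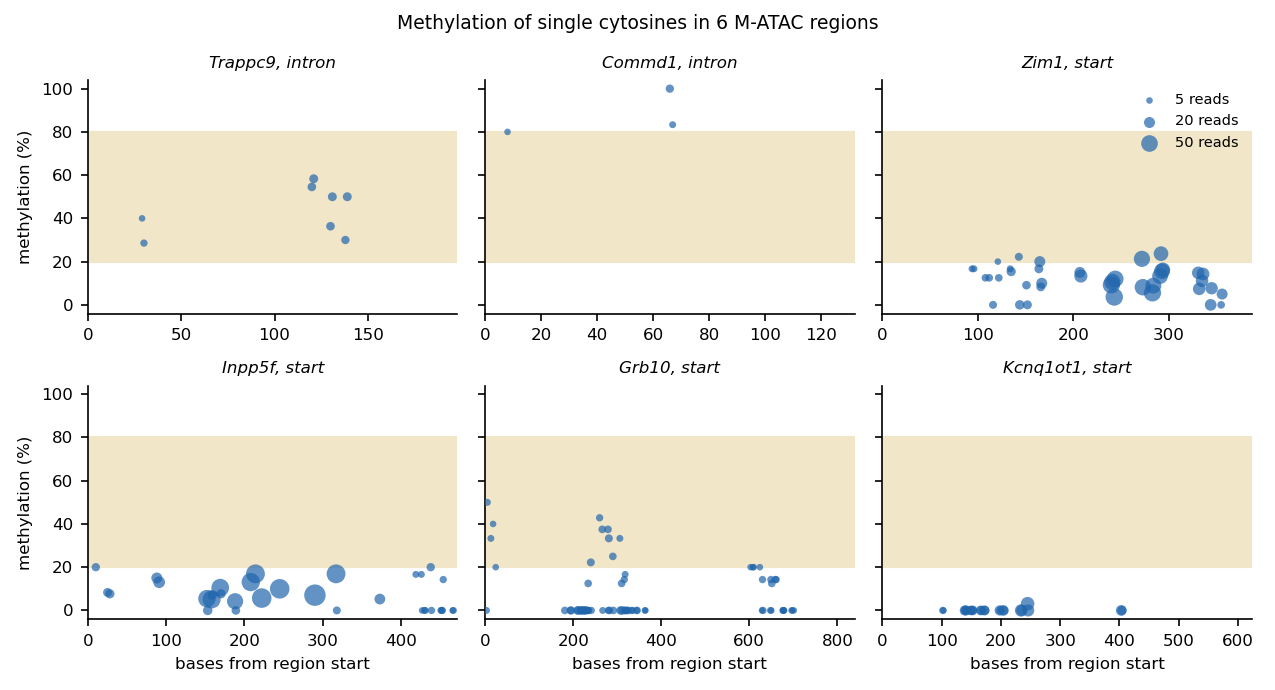
Methylation of single cytosines (percent of reads) in 6 open regions of imprinted genes, against bases from the region's first base, with circle size growing with the number of reads and the 20 to 80% band shaded. The 8 cytosines of the Trappc9 region lie between 28.6 and 58.3%. Those at annotated starts of Zim1, Inpp5f and Grb10 lie mostly under 20%, and those at the start of Kcnq1ot1 lie at or near 0%.

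The domains are given next, beginning with the paternally methylated ones. In the H19 and Igf2 domain no open region was called at H19, and 1 region with cytosines at Igf2 (chr7:142660593-142660760), 445 bases from its start, had 0 methylated of 77 reads (up to 4.75%). This Igf2 region had a peak in no single sample. In the Dlk1 to Dio3 domain the region 587 bases from the Meg3 start (chr12:109542855-109543181) held 18 of 220 (8.18%, 5.24 to 12.6). Its peaks were 5.3-, 5.6-, 6.0- and 5.6-fold in M-ATAC, 6.9- and 4.5-fold in M-ATAC-NC, and absent and 4.4-fold in ATAC. Regions 1650 bases from the Meg3 start and 1852 bases from that of Mirg held 7 of 53 (13.2%, 6.55 to 24.8) and 14 of 127 (11%, 6.68 to 17.7). The open regions of the Dlk1 to Dio3 domain together had 4.58% of reads methylated, beside 4.80% in the Peg13 domain, 5.02% in the Peg10 domain, 0.975% in the Kcnq1 domain and 0.283% in the Mest domain.

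The maternally methylated domains ranged from the 0.283% of the Mest domain to the 5.02% of the Peg10 domain, with 2.93% in the Zrsr1 domain and 0.643% in the Igf2r domain. All regions with enough cytosines together had 1.66%. In the Peg10 domain 60 of the 110 methylated reads lay in the window of Ppp1r9a. In the Peg13 domain 36 and 20 of the 81 lay in the intronic Trappc9 regions described above. The start of Kcnq1ot1 (chr7:143296355-143296977), a non-coding RNA read from within Kcnq1, held 1 methylated of 363 reads (0.275%, 0.0486 to 1.54). It was open in every sample, at 9.7-, 14.4-, 11- and 7.3-fold in M-ATAC, 10.4- and 11.4-fold in M-ATAC-NC and 8.0- and 6.4-fold in ATAC. The start of Cdkn1c in the same domain held 4 of 1334 reads (0.300%). Openness without methylation at Kcnq1ot1 went with an RNA level of 0.22 TPM, counted without strand.

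At Peg3 the start (chr7:6730427-6730594) held 1 of 350 reads (0.286%). The 3 intronic regions behind it held 5 of 213 (2.35%), 9 of 1158 (0.777%) and 8 of 739 (1.08%). The last of these, 2362 bases from the start, overlapped a CTCF region. None of their cytosines was intermediate, and the Peg3 domain's share of 3.95% came mainly from Zim1.

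In the Snrpn domain an intronic region 688 bases from the nearest start, that of Snurf, held 0 of 93 reads (up to 3.97%), with a peak in no single sample. One 1788 bases away held 7 of 92 (7.61%, 3.73 to 14.9). The start of Ube3a held 6 of 2543 (0.236%). At Igf2r the start (chr17:12769424-12769976) held 0 of 296 (up to 1.28%), with peaks of 6.8-, 5.2- and 5.4-fold in M-ATAC samples 1, 3 and 4, none in sample 2, 5.3- and 5.9-fold in M-ATAC-NC and 3.9- and 4.7-fold in ATAC. The region nearest the start of Airn had 1 covered cytosine with 1 of 7 reads methylated, which is too few to place it.

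Mest had 1 of 117 reads methylated at its start (0.855%) and 0 of 81 at 869 bases, the latter with a peak in no single sample. The neighbor of Mest, Copg2, a coat protein gene, had 3 of 1565 at its start (0.192%). Gnas had 6 of 320 (1.88%), 2 of 522 (0.383%) and 1 of 86 (1.16%) in regions at the starts of its own transcripts and of Nespas, the antisense transcript. Nnat had 0 of 81 at 265 bases and 0 of 269 at the start of Blcap, the gene that contains it. The upper limits of all these regions were at most 6.30%, and the first Gnas region (0.862 to 4.03) lay above the 0.30% median of starts elsewhere.

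A few of the maternally methylated genes had some methylated reads. Plagl1 held 25 of 433 (5.77%, 3.94 to 8.38) at a start (chr10:13090465-13091096), with 5 of 48 cytosines intermediate, no peak in M-ATAC sample 1, and folds of 6.8, 10.1 and 4.7 in samples 2 to 4. Grb10 held 39 of 480 (8.12%, 6 to 10.9) at an annotated start inside the gene (chr11:12025654-12026492), with 15 of 67 cytosines intermediate. That region had peaks in M-ATAC samples 1 and 3 (4.9- and 5.7-fold), in both M-ATAC-NC samples (5.6- and 7.2-fold) and in both ATAC samples (5.2- and 7.4-fold). A second Grb10 region, in an intron, held 29 of 202 (14.4%, 10.2 to 19.9). Peg10 held 22 of 540 (4.07%, 2.71 to 6.09), Zrsr1, a splicing factor gene inside Commd1, 14 of 354 (3.95%, 2.37 to 6.53), and Peg13 5 of 128 (3.91%, 1.68 to 8.82). Impact held 33 of 2022 (1.63%, 1.16 to 2.28) at a start where 4 cytosines were intermediate. The regions just listed all had upper limits under 20%, but others of the same genes, with fewer reads, did not. One 823 bases from the Peg13 start held 8 of 71 (11.3%, 5.82 to 20.7), with 4 of 10 cytosines intermediate. Another in an intron of Grb10 (chr11:11973391-11973667) held 7 of 51 (13.7%, 6.81 to 25.7). Regions 29 and 176 bases from a Grb10 start farther upstream held 0 of 15 and 0 of 53 (up to 20.4% and 6.76%), the latter with a peak in no single sample.

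CTCF was found at 30 of the 44 genes (68.2%), against 39.3% of all genes, again with the shorter windows of all genes. The merged M-ChIP list gave 54 CTCF regions at the imprinted genes out of 38881, with 33 in introns, 11 on exons and 10 in flanks. Of the 54, 33 had a peak in both CTCF M-ChIP samples (61.1%, against 62.7% of all), 29 in both CTCF M-ChIP-NC samples (53.7%, against 50.1%) and 53 in both CTCF ChIP samples (98.1%, against 89.7%). In 25 there was a peak in all 6 samples, a count not made over all regions. Over these 25 the median fold was 10.9 and 9.34 in CTCF M-ChIP, 7.65 and 9.62 in CTCF M-ChIP-NC, and 14.4 and 17.5 in CTCF ChIP. CTCF ChIP was the highest group, as it was over whole lists, with medians of 10.05 and 11.5 against 6.84 to 8.43 in the other 4 samples. An open region overlapped 17 of the 54 (31.5%, against 22.0% of all CTCF regions).

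Methylation under bound CTCF was read at motif matches. At the imprinted genes 31 matches in the windows of 17 genes held 70 cytosines with at least 5 reads, or 65 when a cytosine shared by overlapping matches is counted once. Coverage was 5 to 30 reads with a median of 10.5. Intermediate methylation was found at 10 of the 70 (14.3%, Wilson interval 7.95 to 24.3), against 20.4% of all 35385, and methylation above 80% at 3 (4.29%, against 2.13%). With at least 10 reads it was 2 of 39 (5.13%, against 13.9% of all), so 8 of the 10 rest on fewer reads. Of the 70, 46 had no methylated read. The 10 intermediate cytosines lay in Plagl1 and Commd1, and the other 15 genes with covered motif cytosines had none.

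The most methylated bound motif of Plagl1 was in a coding exon (chr10:13127503-13127521). It held 21 methylated of 41 reads (51.2%, 36.5 to 65.7). Its 4 cytosines, those of the CGaCG shown above, had 6 of 12, 4 of 9, 9 of 11 and 2 of 9 reads methylated, so the strands of its second CpG were at 81.8% and 22.2%. CTCF peaks there were 10.6-fold and absent in CTCF M-ChIP, absent and 10-fold in CTCF M-ChIP-NC, and 9.5- and 13.5-fold in CTCF ChIP. A weaker match on the other strand (chr10:13127505-13127523) shares 2 of these cytosines and is not separate evidence. A second Plagl1 site, in an intron, had 2 of 10 reads methylated at its 1 covered cytosine, and its peaks were found in all 6 samples at 7.6-fold to 17.5-fold.

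Commd1 held a pair of methylated motifs in introns. At chr11:22950320-22950338, 18 of 34 reads were methylated (52.9%, 36.7 to 68.5), with 3 of 9, 3 of 8, 5 of 9 and 7 of 8 at its cytosines. CTCF peaks there were 7.5-fold and absent in CTCF M-ChIP, absent and 5.8-fold in CTCF M-ChIP-NC, and 11.5- and 10.8-fold in CTCF ChIP. At chr11:22965807-22965825, 10 of 15 reads were methylated (66.7%, 41.7 to 84.8), and the site had a peak in all 6 samples, from 6.1-fold to 11.5-fold. A further match, shared with the window of Zrsr1, had 1 of 6 reads methylated.

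Of the 4 methylated sites shown above, 3 lay in repeats. Among all bound motif cytosines, 45.9% of the 4434 in repeats were intermediate, against 16.7% of the 30951 outside. Both Commd1 matches and the intronic Plagl1 match lay in repeats and held 7 of the members' cytosines, of which 6 were intermediate and 1 was above 80%. Outside repeats 4 of 63 were intermediate (6.35%), all at the overlapping pair of Plagl1 matches, where 1 cytosine is counted in both. The part of repeats in the methylation was not tested. The 50-base window around each of 36 checked cytosines, read as bisulfite-converted sequence, occurred once in the genome.

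**Figure D4:**
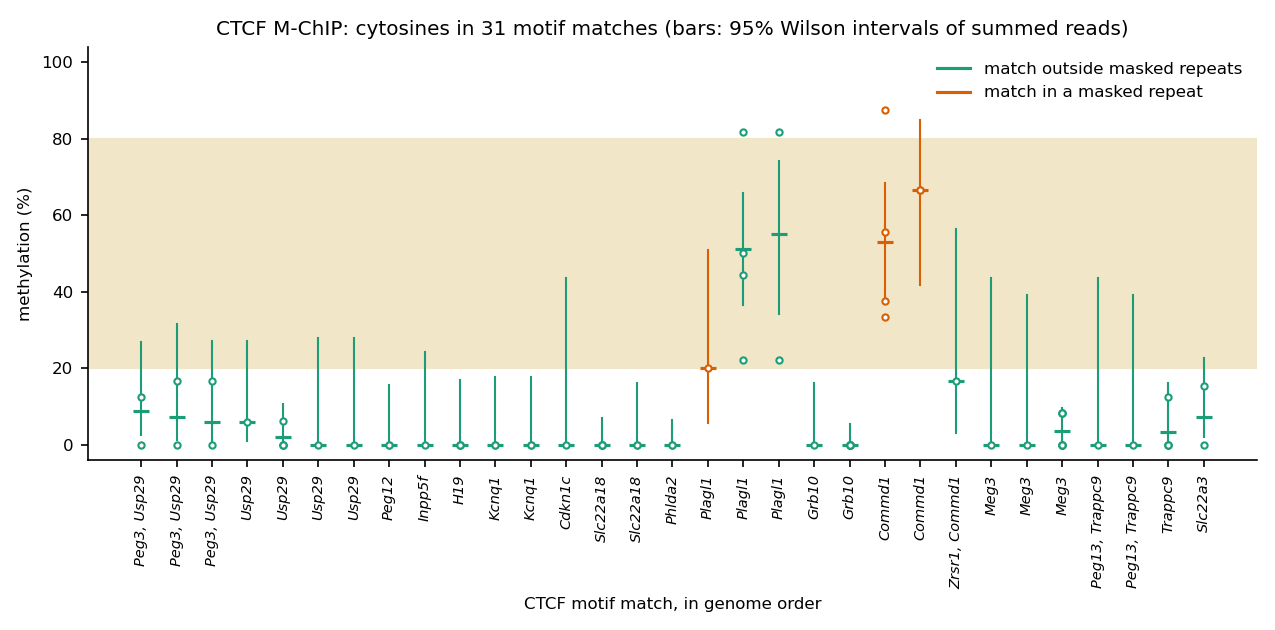
Methylation in the 31 bound CTCF motif matches at imprinted genes in merged CTCF M-ChIP (percent of reads), in genome order, with circles for single cytosines, dashes for the summed reads of a match, bars for 95% Wilson intervals and orange for matches in repeats. The matches of Plagl1 and both repeat ones of Commd1 lie at 20% to 66.7%, and those of genes such as H19, Grb10 and Meg3 lie at or near 0%.

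The other bound motifs were nearly free of methylation. At H19 the bound site lies in the flank upstream of the start, and 0 of 19 reads were methylated over 3 cytosines (up to 16.8%) in the core CGCGCG shown above. These cytosines had 7, 6 and 6 reads on the same strand, so the same molecules may be counted more than once. Taken singly their upper limits were 35.4, 39.0 and 39.0%. The CTCF region of H19 (chr7:142580702-142580840) had peaks of 4.5-fold in sample 1 of CTCF M-ChIP and of its control, and none in sample 2 of either. In CTCF ChIP they were 4.7- and 5.2-fold, so the region was low in every group. At Meg3 a match within the region described above held 3 of 87 (3.45%, 1.18 to 9.65), under peaks of 10.5- and 15.9-fold in CTCF M-ChIP, 6.7- and 12.6-fold in CTCF M-ChIP-NC and 16.1- and 18.7-fold in CTCF ChIP. At Peg3, 3 matches held 2 of 23, 1 of 14 and 1 of 17 reads, with peaks in all 6 samples from 4.6-fold to 15.2-fold.

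Grb10 had 0 of 69 reads methylated (up to 5.27%) in the open region over the annotated start named above, and 0 of 20 at an intronic site. Both sites had peaks in all 6 samples. The open DNA of the same Grb10 start had 8.12%, over a wider stretch with other cytosines. In the Kcnq1 domain Slc22a18, a transporter gene, had 0 of 51 and 0 of 20, Phlda2 0 of 56, Kcnq1 0 of 18 and Cdkn1c 0 of 5. At Peg13 the CTCF region at the start overlapped open DNA, and its matches had 0 of 5 and 0 of 6. Peg12, an intronless gene of the Snrpn domain, had 0 of 21, and Inpp5f 0 of 12. Sequences of little methylated matches are given for comparison, with their methylated reads, and the Meg3 line is another match, 5′ of the one described above.
Peg3, intron, chr7:6727539-6727557, minus strand, 1 of 17 reads methylated: tttgttggtcacaagggggCGtctggtat
Meg3, chr12:109542167-109542185, plus strand, 0 of 5 reads methylated: attgatggcCGcaagagggcgctggtggc
Grb10, intron, chr11:11973603-11973621, minus strand, 0 of 20 reads methylated: agggactgccaccaggggtCGgcacagcc
Peg13, start, chr15:72810083-72810101, minus strand, 0 of 5 reads methylated: gttcctaccCGgtagagggcgccgcagaa
None of these 4 lay in repeats.

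Cytosines covered in both tables were compared directly between CTCF-bound and open DNA. There were 24 at the imprinted genes among 10066 with at least 5 reads in each: 7 at Meg3, 7 at Grb10, 6 in the window shared by Peg3 and Usp29, 2 at Kcnq1, and 1 each at Peg12 and Slc22a18. Of the 24, 15 were at 0% in both, as were 7724 of all 10066. None differed by Fisher's exact test, two-sided, with Benjamini-Hochberg adjustment over all 10066 (0 of 24, against 0.00% of all), and none had an unadjusted p under 0.05, the smallest being 0.167. Over all 10066 this was so for 20. The cytosine with that p was at Peg3 (chr7, position 6727483), with 0 of 30 reads methylated in M-ATAC and 1 of 6 in M-ChIP. The depth limits this comparison: on simulated reads at the same 10066 cytosines a difference of 50 percentage points was called at 0% and one of 80 points at 47.5% of changed cytosines. The test compares merged libraries and not conditions, and none of the methylated Plagl1 and Commd1 motifs was covered in both.

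Finally, the share of each sample's peak regions that fell on imprinted genes was compared between methods, which asks how evenly the methods recover these genes. The unconverted controls were aliquots kept before bisulfite conversion, by the paper's account. Their aligner is not given, so conversion and alignment cannot be told apart in their comparisons. ATAC and CTCF ChIP differed from M-ATAC and M-ChIP in conversion, transposase (Nextera, without methylated adaptors) and aligner, and these cannot be told apart either. The share was 0.236%, 0.215%, 0.215% and 0.221% in M-ATAC, 0.212% and 0.218% in M-ATAC-NC, and 0.253% and 0.225% in ATAC. The range of M-ATAC overlapped both that of M-ATAC-NC and that of ATAC. The share was 0.149% and 0.137% in CTCF M-ChIP, 0.157% and 0.135% in CTCF M-ChIP-NC, and 0.160% and 0.161% in CTCF ChIP. CTCF M-ChIP lay within the range of its control and below CTCF ChIP in both samples.

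None of the 4 comparisons passed an exact permutation test over samples, two-sided. M-ATAC (0.222% ± 0.00985, SD, n = 4) exceeded M-ATAC-NC (0.215% ± 0.00462, n = 2) by 0.00672 percentage points (exact permutation p = 0.533, Benjamini-Hochberg adjusted 0.711). M-ATAC minus ATAC (0.239% ± 0.0198, n = 2) was -0.0173 (exact permutation p = 0.267, adjusted 0.667). CTCF M-ChIP (0.143% ± 0.00808, n = 2) minus CTCF M-ChIP-NC (0.146% ± 0.0160, n = 2) was -0.00272 (exact permutation p = 1, adjusted 1). CTCF M-ChIP minus CTCF ChIP (0.161% ± 0.000967, n = 2) was -0.0173 (exact permutation p = 0.333, adjusted 0.667). The smallest p these designs can give is 0.133 with 4 against 2 samples and 0.333 with 2 against 2, so none could pass 0.05. Both M-ATAC comparisons share the M-ATAC samples, and both CTCF comparisons the M-ChIP samples.

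**Figure D5:**
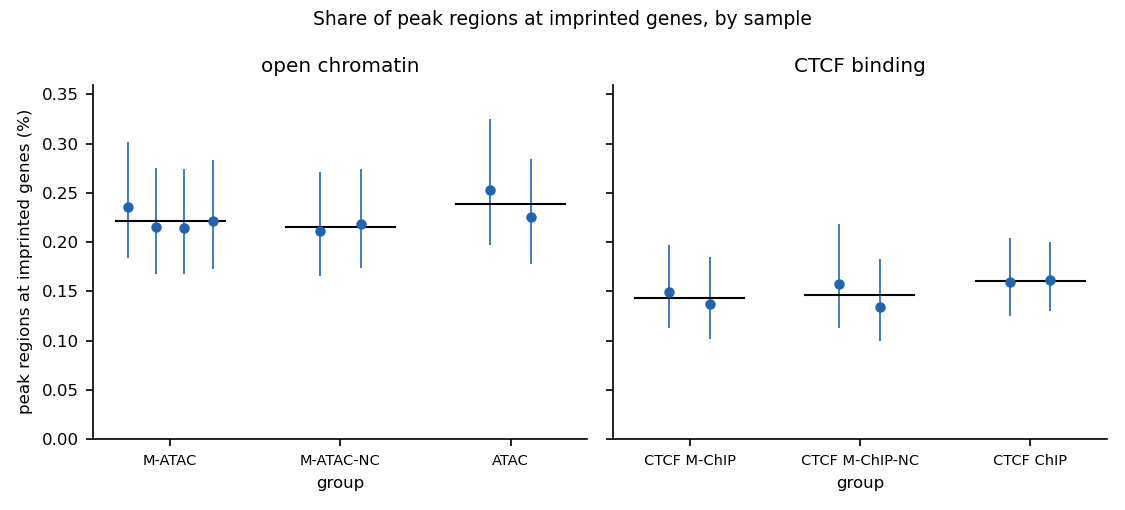
Percent of each sample's peak regions that overlap an imprinted gene or the 5 kb on either side, with 1 point per sample, vertical bars for its 95% Wilson interval (counting error only) and a horizontal line at each group's mean. The open-chromatin samples lie between 0.212 and 0.253%, the CTCF samples between 0.135 and 0.161%, and the intervals of all samples within each panel overlap.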

How the data were processed

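Methylation and peaks were analysed from KH2 mESC by M-ATAC, CTCF M-ChIP, their unconverted controls, ATAC and CTCF ChIP (14 samples with peak lists), and RNA from 2 merged RNA-seq samples. The authors trimmed paired-end reads (Trim Galore 0.4.4 in the submitters' processing notes) and aligned them to mm10, with Bismark 0.18.1 for M-ATAC and M-ChIP and Bowtie2 for ATAC and ChIP. The aligner of the unconverted controls is not given in the sources used here. MACS2 peak lists, as deposited, hold 1 line per summit with its score, its fold enrichment (a ratio to nearby background), and its p-value and q-value on the −log10 scale. In the authors' methylation tables, replicates are merged and each cytosine has its percent methylation beside 2 read counts (methylated and not). For matches to the CTCF motif MA0139.1 the authors deposited the score and the p-value from FIMO. The authors' RNA table gives TPM per gene, counted without strand. KLF4 lists were not used here.

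The members and gene lists were chosen with earlier results of these data known. Gene windows were the GENCODE M21 gene and 5 kb on either side. Overlapping summits were counted as 1 region. Cytosines needed 5 reads and regions 3 such cytosines. Intervals are 95% Wilson intervals, which treat reads summed over neighboring cytosines as independent. A region was called intermediate where its interval lay wholly between 20 and 80%. Distances are to the nearest GENCODE start of any gene. Values were named for members with a called region or an intermediate motif cytosine, for known carriers of control regions, and for the 6 members of highest TPM, and members were accounted for by counts. Names outside this rule were chosen after their values were seen. Group shares were compared by exact permutation tests over samples, two-sided, and cytosines by Fisher's exact test, with Benjamini-Hochberg adjustment at 0.05, in Python 3.11.15 with scipy 1.17.1, and the Fisher and permutation tests were checked on simulated data. The number of peak regions per sample was 22261 to 49633, and read depth per sample is not used here. The unconverted controls share DNA with converted samples, since the paper describes them as aliquots kept before conversion. The labels do not say which samples were split from each other. Samples with the same replicate number did not deviate together, and shared numbers were not treated as pairs. The permutation tests against these controls therefore leave the shared origin out.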

Additional observations from a re-analysis of the deposited data

How the results depend on the processing

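The shares of intermediate methylation depended on the read minimum and the limits. For cytosines in open regions the share of 5.73% became 8.29% at 1 read or more (all cytosines 7.27%), 2.09% at 10 or more (1.99%), 2.71% with limits of 30 and 70% (2.82%), and 3.63% within 3 kb of a start. For motif cytosines it became 5.13% at 10 reads or more, on 39 cytosines (13.9% of all). Called regions, 1 of 98, became 7.38% (9 of 122) at 1 read or more (9.55% of all), 4.08% (4 of 98) without the interval and 2.44% (3 of 123) with 1 cytosine or more. The share of peak regions in CTCF M-ChIP minus CTCF M-ChIP-NC changed sign to 0.00233 with peaks of −log10 q 5 or more, and ran from -0.0141 to 0.00861 when single samples were left out, turning positive without CTCF M-ChIP replicate 2 (0.00299) or CTCF M-ChIP-NC replicate 1 (0.00861). Leaving out single samples gave 0.00203 to 0.00999 for M-ATAC minus M-ATAC-NC, -0.0313 to -0.00336 for M-ATAC minus ATAC, and -0.0230 to -0.0116 for CTCF M-ChIP minus CTCF ChIP. With replicate numbers as a replicate block, in exact sign-flip tests whose smallest p is 0.5, the differences were 0.0104 (p = 1), -0.0137 (p = 0.5), -0.00272 (p = 1) and -0.0173 (p = 0.5), in the order above with CTCF M-ChIP-NC before CTCF ChIP. Deviations of same-numbered samples correlated at -0.083 to 0.074, and no call changed with the block. The causes of these shifts were not tested. Expressed genes numbered 37 at 0.5 TPM and 28 at 5 TPM. Fisher calls at imprinted genes stayed at 0 at 10 reads or more (11 cytosines) and with strands summed (18).

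Limits of these values are depth, with a median of 9 reads a cytosine in open regions and 10.5 in motifs, the merging of methylation and RNA tables, so that no spread between samples is known, and the reading of methylation on open or bound DNA alone, without a parental copy.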
